A study of Homo sapiens with 15 samples.

Results

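Long intergenic noncoding RNA genes that carry a LINC number as their symbol were described across nuclear RNA, promoter chromatin and RNA bound by PHC1 or by RNA polymerase II (RNAPII) in HEK293T T-REx cells. A gene was taken where its Entrez number, as given in the tables, maps to a current symbol made of LINC and digits. This gave 500 of the 14432 genes, all 500 of them annotated as lncRNA genes in RefSeq. The choice used the name alone and no measured value.

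The cells are a human embryonic kidney line that can express a transgene under tetracycline control. PHC1 PAR-CLIP (2 libraries) and PHC1 ChIP-seq (2 libraries) came from cells with a PHC1 transgene, and PHC1 dFCS ChIP-seq (2 libraries) from cells with a PHC1-dFCS transgene. Both transgenic proteins were pulled down on streptavidin beads. The other libraries came from cells with no transgene: RNAPII PAR-CLIP after 4-thiouridine (4SU, 1 library) or 6-thioguanosine (6SG, 1 library), total nuclear RNA-seq (2 libraries), ChIP-seq of RNAPII, EZH2, H3K27me3 and H3K4me3 (1 library each), and input DNA (1 library). PAR-CLIP lets cells take up a photoreactive nucleoside, here at 100 uM. Light of 365 nm, here at 0.15 J per cm2, then crosslinks RNA to the protein that holds it. The sample titles name the nucleoside for the RNAPII libraries only. For the ChIP-seq and input libraries the labels give 1% formaldehyde. For PAR-CLIP the labels describe lysis of cells in detergent, for RNA-seq the isolation of nuclei first. Transgene, assay and preparation therefore cannot be told apart when PHC1-bound RNA is set against nuclear RNA.

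Long intergenic noncoding RNAs are transcripts of genes that lie between protein-coding genes. They are usually made by RNAPII, capped and spliced like mRNAs, often kept in the nucleus, and often found in few cell types. PHC1 belongs to Polycomb repressive complex 1, which keeps genes silent together with Polycomb repressive complex 2, whose enzyme EZH2 places H3K27me3, and Polycomb proteins have been reported to touch many RNAs. H3K4me3 marks active promoters, most of which are rich in CpG dinucleotides.

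The nuclear RNA libraries held 47187882 and 49626658 counted reads over all genes. The PAR-CLIP tables held 696186 and 698056 clusters (stretches of overlapping reads) for PHC1, 667937 for RNAPII 4SU and 45259 for RNAPII 6SG, so the 6SG library was by far the smallest. The ChIP libraries decoded to between 32.5 and 43.1 M reads (M, 1000000), with a median of 18 to 146 reads per transcription start site (TSS) and 22 for the input. Neurofilament and vimentin genes known from this line were present, as 4 of the 5 marker genes in the table exceeded 1 CPM (a gene's reads in a library scaled to 1000000), with PAX2 at 0.381 and 0.121. No blood, liver or keratinocyte marker reached 1 CPM in either RNA library, and 1 of 3 fibroblast markers did. As each library is a bulk sample, fewer cells with an RNA and less of it per cell cannot be told apart.

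The 500 regions were shorter and more isolated than the other genes of the tables. Their median length was 14.7 kb, with a longest region of 543 kb, against 23.8 kb over all genes. The median gap to the nearest other region was 47.2 kb against 11.4 kb, and 19 members (3.80%) lay within 1 kb of another region against 15.5% of all genes. Members made up 3.46% of all genes of the tables, but 28 of the 163 on chromosome 21 and 37 of the 281 on chromosome 13. No region of the tables overlaps another, so a read cluster can fall in a single region at most.

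Nuclear RNA of most members was scarce. Only 111 members (22.2%, Wilson 95% interval 18.8 to 26.1%) reached 1 CPM in both nuclear RNA libraries, against a background of 69.8% of all genes. The median member stood at 0.127 CPM in replicate 1 and 0.121 CPM in replicate 2, the median of all genes at 16.9 and 17.0 CPM. Per kb of gene region the medians were 0.00559 and 0.568 CPM. A further 81 members (16.2%) had no read in either library, against 5.28% of all genes. A count of 0 still allows 3 reads, or 0.0636 CPM in replicate 1 and 0.0605 CPM in replicate 2, and these limits cover counting error only. The level of 1 CPM fell in a dense range, with the 5 members just inside it at 1.03 to 1.11 CPM and the 5 just outside at 0.927 to 0.967 CPM. At 0.1 CPM 247 members would count as detected, at 5 CPM 56, and shares of all genes at these levels are not given here.

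A handful of members carried most of the reads. All members together took 111533 reads in replicate 1 and 116379 in replicate 2, which is 0.236% and 0.235% of the counted reads, and 8 members made up more than 50% of these in each library. LINC02067 (Entrez 101243545, hg19 chr3:161144215-161166030, nearest region OTOL1 at 48.6 kb) alone took 26792 and 27977 reads, or 24.0% of the members' reads in each library. Its level was 25.9 CPM per kb, the highest of the 500. LINC00205 on chromosome 21 followed with 107 and 97.0 CPM, or 10.9 CPM per kb. The next by this measure were LINC00641 (6.93 CPM per kb), LINC02381 (6.89), LINC00938 (6.88) and LINC00987 (6.56), all 4 in regions under 7 kb. The replicates lay close together in these 6 genes, and by their ratio furthest apart in LINC00641 with 44.6 and 49.9 CPM.

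At promoters, the members carried active marks seldom and Polycomb marks about as seldom as other genes. A mark was counted where its reads at the TSS, scaled to library size, were at least 2.0 times those of the input. With 1 library for each mark there is no replicate check. H3K4me3 passed at 78 members (15.6%, background 62.5%) and RNAPII at 57 (11.4%, background 47.5%). H3K27me3 passed at 11 members (2.2%, background 1.86%) and EZH2 at 13 (2.60%, background 2.06%). The median H3K4me3 was 0.939 times the input over members and 6.03 times over all genes, while the median H3K27me3 was 0.932 and 0.756 times. No member carried H3K4me3 and H3K27me3 together, a state found at 95 genes of the tables (0.658%). At so low a share its absence is not a result about the members. The other 411 members had neither mark.

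The reads behind these ratios set their precision. By exact (Clopper-Pearson) 95% intervals of the ratio, which cover counting error only, all 78 H3K4me3 calls stayed above 1 time the input at their lower bound and 63 above 2.0 times. For H3K27me3, 8 of the 11 stayed above 1 time and 0 above 2.0 times. For EZH2 the numbers were 12 of 13 and 0, for RNAPII 56 of 57 and 22. Every gene of the tables has at least 10 reads in the input and in each target, so regions without reads are not among them.

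The strongest H3K4me3 lay at LINC00472, a gene reported as a suppressor in breast cancer, with 346 reads against 15 in the input, or 20.8 times the input. LINC01750 followed at 18.9 times, then LINC00115 at 18.7, LINC01465 at 17.3 and LINC00205 at 17.2 times. These 5 promoters did not share a level of RNA: LINC00205 stood at 107 and 97.0 CPM and LINC00472 at 24.5 and 24.7 CPM, but LINC01750 at 0.106 and 0.282 CPM. LINC00115 and LINC00205 lay 0.069 and 0.156 kb from the regions of LINC01128 and POFUT2, so their marks cannot be told apart from those of these neighbours. Within 1 kb of another region were 12 of the 78 members with H3K4me3 (15.4%) and 7 of the 422 without (1.66%). Over all genes these shares were 20.7% and 6.84%, so the contrast is not particular to the members.

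H3K27me3 was highest at LINC01148 with 30 reads against 10 (2.70 times, interval 1.28 to 6.19) and LINC00221 with 62 against 21 (2.66 times, interval 1.60 to 4.59). LINC00968 and LINC00410 both stood at 2.55 times and LINC00923 at 2.40 times the input. Of these 5, LINC00221 and LINC01148 also passed for EZH2, at 2.58 and 2.37 times. LINC01148 had 21 EZH2 reads, under the members' median of 22, and its 10 input reads were far under their median of 22. All marks are divided by the same input reads, so a low input raises every ratio of a gene. What part this has in the shared calls was not tested. Across the 11 members with H3K27me3, 5 also passed for EZH2, against 89 of the 268 such genes in the tables. The 2 strongest H3K4me3 promoters, the 2 strongest H3K27me3 promoters that the RefSeq promoter table holds and the promoter of the held member with the most RNA per kb show how unlike in CpG content these sequences are. Each line gives 300 bases on the gene's strand, 5′ to 3′, from 250 before to 50 after the RefSeq start (GRCh38.p14), which may differ from the hg19 start the authors used, and capitals mark CpG dinucleotides. Positions are chr6:71420696-71420995 on the minus strand for LINC00472, chr1:111990286-111990585 on the plus strand for LINC01750, chr14:106482189-106482488 on the plus strand for LINC00221, chr13:90926548-90926847 on the minus strand for LINC00410 and chr21:45287802-45288101 on the plus strand for LINC00205.
LINC00472: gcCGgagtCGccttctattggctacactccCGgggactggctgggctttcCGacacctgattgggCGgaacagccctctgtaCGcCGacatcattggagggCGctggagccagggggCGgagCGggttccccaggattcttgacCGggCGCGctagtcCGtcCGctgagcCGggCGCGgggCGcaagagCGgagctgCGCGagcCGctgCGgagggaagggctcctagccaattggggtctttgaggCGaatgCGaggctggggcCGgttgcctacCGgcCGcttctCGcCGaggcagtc
LINC01750: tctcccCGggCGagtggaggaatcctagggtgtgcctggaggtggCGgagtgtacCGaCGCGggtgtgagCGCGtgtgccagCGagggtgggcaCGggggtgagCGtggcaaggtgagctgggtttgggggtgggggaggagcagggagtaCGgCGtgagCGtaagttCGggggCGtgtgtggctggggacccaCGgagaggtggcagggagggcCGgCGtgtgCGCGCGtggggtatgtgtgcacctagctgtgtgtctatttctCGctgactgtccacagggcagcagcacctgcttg
LINC00221: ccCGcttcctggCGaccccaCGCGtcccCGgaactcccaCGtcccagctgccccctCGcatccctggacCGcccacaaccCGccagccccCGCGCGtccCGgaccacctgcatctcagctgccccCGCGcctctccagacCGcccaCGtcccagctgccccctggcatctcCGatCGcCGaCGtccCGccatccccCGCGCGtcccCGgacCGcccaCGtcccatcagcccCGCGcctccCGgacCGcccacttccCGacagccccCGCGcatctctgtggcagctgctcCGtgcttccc
LINC00410: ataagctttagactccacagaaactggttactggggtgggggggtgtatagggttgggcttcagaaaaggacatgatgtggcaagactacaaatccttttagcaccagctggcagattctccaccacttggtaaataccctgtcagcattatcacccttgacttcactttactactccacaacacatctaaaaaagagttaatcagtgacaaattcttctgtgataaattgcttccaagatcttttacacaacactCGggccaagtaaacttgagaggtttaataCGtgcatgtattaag
LINC00205: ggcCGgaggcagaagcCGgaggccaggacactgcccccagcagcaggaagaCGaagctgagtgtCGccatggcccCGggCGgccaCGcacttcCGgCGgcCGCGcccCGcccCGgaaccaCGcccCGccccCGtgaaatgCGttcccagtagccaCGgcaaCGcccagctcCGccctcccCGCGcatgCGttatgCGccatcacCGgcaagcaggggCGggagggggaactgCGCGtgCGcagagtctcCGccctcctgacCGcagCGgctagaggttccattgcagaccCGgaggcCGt
LINC00472 holds 31 CpG, LINC01750 23, LINC00205 34 and LINC00221 36. LINC00410, with nearly the same H3K27me3 ratio as LINC00221, holds 2.

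The same contrast ran through the members as a group. For 348 members a promoter window was held. The observed number of CpG over that expected from base content had a median of 0.810 in the 60 with H3K4me3 and of 0.240 in the 288 without. Over all genes with a window these medians were 0.851 (7236 genes) and 0.298 (3733 genes). The number of CpG per window was 24 at the median with H3K4me3 and 4 without. The ranges overlapped, since LINC00511, an RNA reported as raised in several tumours, held 35 CpG while its H3K4me3 was 0.706 times the input. The motif TATAAA, searched on both strands, was present in 54 of the 348 windows (15.5%), in 8.89% of the windows of all genes in the tables and in 12.0% of the 27305 promoters of the RefSeq table. None of the 5 printed windows holds it.

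**Figure D1:**
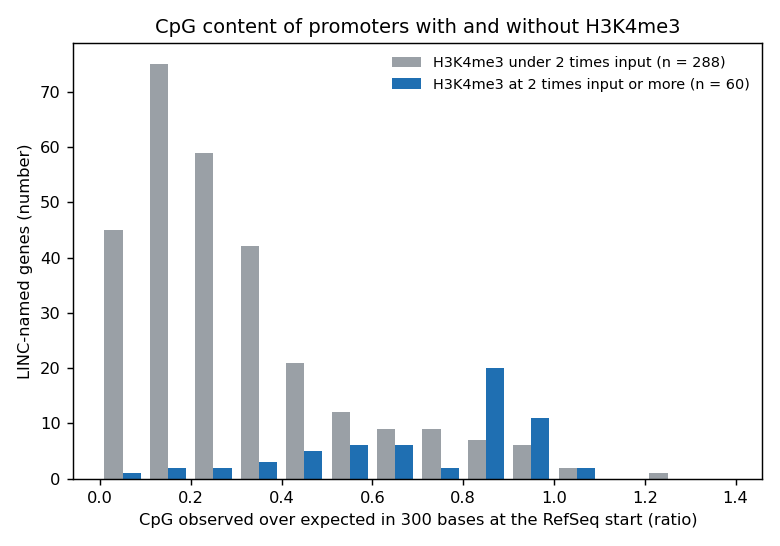
Number of LINC-named genes (y axis) by CpG observed over expected in the 300-base RefSeq promoter window (x axis, ratio), with H3K4me3 under 2.0 times the input (grey, n = 288) or at 2.0 times or more (blue, n = 60). The medians are 0.240 without and 0.810 with H3K4me3, and the distributions overlap.

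H3K4me3 and nuclear RNA went together in part. RNA was detected for 57 of the 78 members with H3K4me3 (73.1%), against 95.3% of all genes with the mark. None of the 11 members with H3K27me3 was detected, against 17.9% of the 173 genes of the tables with H3K27me3 alone. With so few members, this absence is not a result about them. Of the 411 with neither mark 54 were detected (13.1%), against 27.5% of all such genes. Seen from the RNA, 57 of the 111 detected members had H3K4me3 (51.4%), against 85.4% of all detected genes. RNAPII passed at 39 of the 111 (35.1%), against 66.2%. Detected members without H3K4me3 had a median of 3.21 CPM and 0 of 54 passed for RNAPII. Detected members with H3K4me3 had a median of 12.8 CPM and 39 of 57 passed. Over all genes, detected or not, RNAPII passed at 2.48% of promoters without H3K4me3 and at 74.6% of those with it. At so low a share, 0 of 54 is not a result about the members. The 54 include LINC02067, with H3K4me3 at 0.730 and RNAPII at 1.08 times the input, and LINC03124, with 80.8 and 78.1 CPM, H3K4me3 at 0.555 and RNAPII at 0.733 times. The TSS of these values is the one of the authors' table, and other starts of the same gene were not measured. The 21 members with H3K4me3 but no detected RNA had a median H3K4me3 of 5.01 times the input and 7 passed for RNAPII. For such genes no share over all genes is given here.

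**Figure D2:**
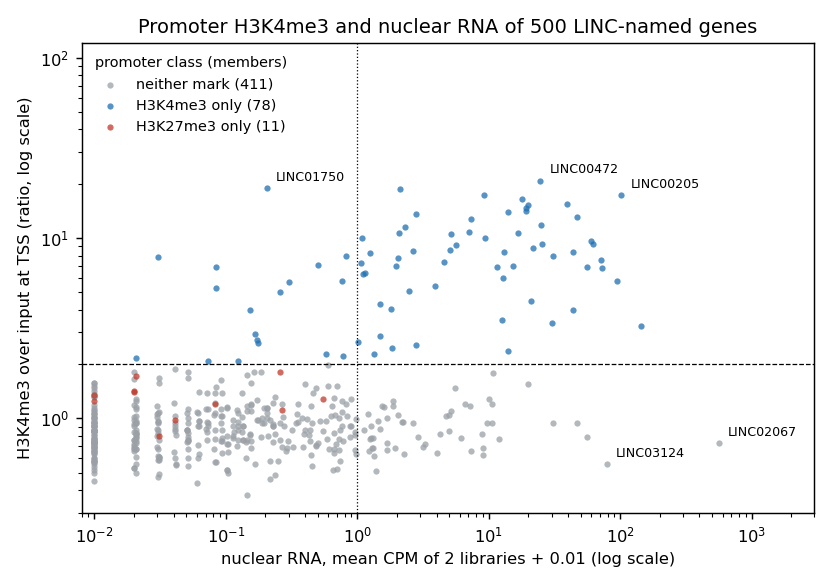
H3K4me3 over input at the TSS (y axis, ratio, log scale) against nuclear RNA (x axis, mean CPM of 2 libraries plus 0.01, log scale) for the 500 members, coloured by promoter class, with dashed and dotted lines at 2.0 times the input and 1 CPM. Members above the dashed line are mostly right of the dotted line (57 of 78), and LINC02067 stands alone at the far right with no H3K4me3.

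RNAPII at the promoter was highest at LINC01003 with 107 reads against 15 in the input, or 8.49 times. LINC00472 (7.38 times), LINC00673 (7.01), LINC01089 (6.82) and LINC01126 (6.07) followed. All 5 also had H3K4me3, between 9.23 and 20.8 times the input. Their nuclear RNA was moderate, from 4.88 CPM for LINC01126 in replicate 2 to 25.7 CPM for LINC00673 in replicate 1. Among the members with H3K4me3, 46 of 78 passed for RNAPII (59.0%), against 74.6% of all genes with the mark. Without H3K4me3, 11 of 422 did (2.61%), close to the 2.48% of all genes without the mark.

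For PHC1 on chromatin, the authors give 1 value per gene that joins both replicates, so no spread can be given. Before input subtraction the median member stood at 6.00 reads per 10M for PHC1, 6.92 for PHC1 dFCS and 5.68 for the input. The log2 ratio of PHC1 dFCS over PHC1 had a median of 0.22 over members (quartiles −0.01 and 0.42) and of 0.25 over all genes. It was above 0 in 74.0% of members and 79.4% of all genes. Where PHC1 exceeded its median over all genes, the median ratio was 0.11 for 283 members and 0.12 for 7216 genes. This subset is picked by PHC1, the denominator of the ratio, so its lower ratio is not a result. PHC1 was little above the input at the median member, so the ratio there compares values near background. Members with H3K4me3 had a median of 0.25, those without 0.22. LINC02381 had a ratio of 0.88 and LINC00221, with H3K27me3 and EZH2, one of −0.30. The members' median ratio was thus close to that of all genes, and no member's difference could be tested.

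RNA bound by PHC1 was found at fewer members than at other genes, and RNAPII-bound RNA at fewer still. At least 1 PHC1 cluster lay in 230 members in replicate 1 (46.0%, background 75.5%) and in 223 in replicate 2 (44.6%, background 74.1%), and 194 members had clusters in both (38.8%, 71.0% of all genes). RNAPII clusters lay in 171 members with 4SU (34.2%, background 73.4%) and in 57 with 6SG (11.4%, background 45.4%). In 206 members (41.2%) none of the 4 libraries had a cluster, against 16.6% of all genes. The members held 1251 and 1232 PHC1 clusters, 1170 RNAPII 4SU clusters and 94 RNAPII 6SG clusters. These are 0.335, 0.331, 0.313 and 0.393% of the clusters inside gene regions of each library. A member with a PHC1 cluster typically had few, with a median of 2 in each replicate, against 13 and 12 over all genes with a cluster.

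PHC1 clusters were present more often where nuclear RNA was detected, with or without H3K4me3 at the TSS. Of the detected members, 84 of 111 had clusters in both PHC1 libraries (75.7%, 88.5% of all detected genes). With H3K4me3 these were 43 of 57 (75.4%) and without it 41 of 54 (75.9%). RNAPII 4SU clusters lay in 50 of the 57 (87.7%) and in 46 of the 54 (85.2%). The difference between these groups was not tested, and they differ in region length, with a median of 10.0 kb with H3K4me3 and 24.2 kb without. Under 0.1 CPM in both RNA libraries, 30 of 201 members still had clusters in both PHC1 libraries (14.9%), close to the 14.0% of all such genes.

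Clusters in members were less often repeated and more often on the opposite strand than clusters in other genes. Of the members' PHC1 clusters in replicate 1, 61.3% met a replicate 2 cluster on the same strand by at least 1 base (Wilson 95% interval 58.6 to 64.0%), against 67.2% of the clusters in all genes. In the other direction the shares were 65.6% (62.9 to 68.2%) and 70.8%. An RNAPII 4SU cluster was met by 22.7% and 21.8% of the members' PHC1 clusters, against 30.7% and 29.3%. For the 348 members with a known strand, 79.2% of the PHC1 clusters of replicate 1 (76.4 to 81.8%) and 81.8% of those of replicate 2 (79.1 to 84.2%) lay on the gene's strand, against 92.8% and 93.1% over all genes. RNAPII 4SU gave 85.7% (83.1 to 88.0%) against 95.5%. Clusters of 1 gene share their RNA, so these intervals cover counting error only.

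Strand varied strongly between members. Of the 33 members with a strand and 5 or more clusters in both PHC1 libraries, 19 had over 90% of them on the gene's strand in both libraries (57.6%, against 70.2% of all such genes). LINC00665 is one, with 66 of 67 and 75 of 77 PHC1 clusters on its strand, and LINC00265 another, with 32 of 33 and 34 of 34. In 4 members (12.1%, against 6.55%) under 50% lay on the gene's strand in both libraries, and these were named after their values were seen: LINC00882, LINC01364, LINC00670 and LINC00273. LINC01364 had 1 of 35 and 0 of 30 PHC1 clusters and 1 of 11 RNAPII 4SU clusters on its strand, and its nearest region, LMO4, begins or ends 4.60 kb away. LINC00273 had 0 of 7 and 0 of 8. The signal of members was also more concentrated: where there were 3 or more clusters, the largest held a median of 36.0% and 33.8% of a member's PHC1 coverage, against 20.3% and 17.8% over all such genes. Members had fewer clusters each, and what part this has in the share was not tested.

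The amount of PHC1-bound RNA was then set against nuclear RNA, the comparison for which the study made both. A per-million value is the summed coverage of a gene's clusters, or its RNA read count, in a library scaled to 1000000 with TMM factors, and a fold compares a gene's standing in 2 kinds of library, not molecules bound. Folds are log2 of the value plus 1. Genes needed a per-million value of 5 in at least 2 of the 4 libraries, which 96 members met and 404 did not. By limma over all 9354 genes tested, at an adjusted p (Benjamini-Hochberg) of 0.05, 59 members were higher in PHC1 PAR-CLIP (background 38.7%), 28 were lower (background 43.7%) and 9 were neither. With library totals in place of TMM factors, which moved the median fold of all genes from −0.17 to −0.72, 43 members were higher (background 27.6%) and 32 lower (background 55.0%) of 89. Without nuclear RNA replicate 1, 45 were higher (background 26.5%) and 18 lower (background 30.2%). Nothing in the labels says that replicates came from separate cultures, so the p-values speak only of how far these libraries lay apart, which may be technical spread.

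How a member entered the test largely set its direction. Of the 43 that reached the level in PHC1 PAR-CLIP alone, 42 were higher, and of the 17 that reached it in RNA alone, all 17 were lower. These counts follow from the filter and are not a result about the members. The 36 that reached it in both split into 17 higher (background 38.8%), 11 lower (background 39.6%) and 8 neither, with a median log2 fold of 0.39 against −0.05 for all genes that passed in both. Library totals alone gave 11 higher (background 25.8%) and 13 lower (background 52.6%) of these 36. Without nuclear RNA replicate 1 there were 10 higher (background 24.8%) and 7 lower (27.7%), and without replicate 2, 9 higher (25.1%) and 7 lower (27.9%). Among these 36, the members called higher had a median length of 61.1 kb (50.9 kb for all such genes) and the members called lower one of 21.8 kb (30.2 kb). H3K4me3 was present at 12 of the 17 called higher (70.6%, against 91.8%) and at 8 of the 11 called lower (72.7%, against 94.3%). Length moved with the fold in the whole table too, with a median fold of −2.42 in the shortest decile by length and 0.33 in the longest, and its part in the members' folds was not tested.

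**Figure D3:**
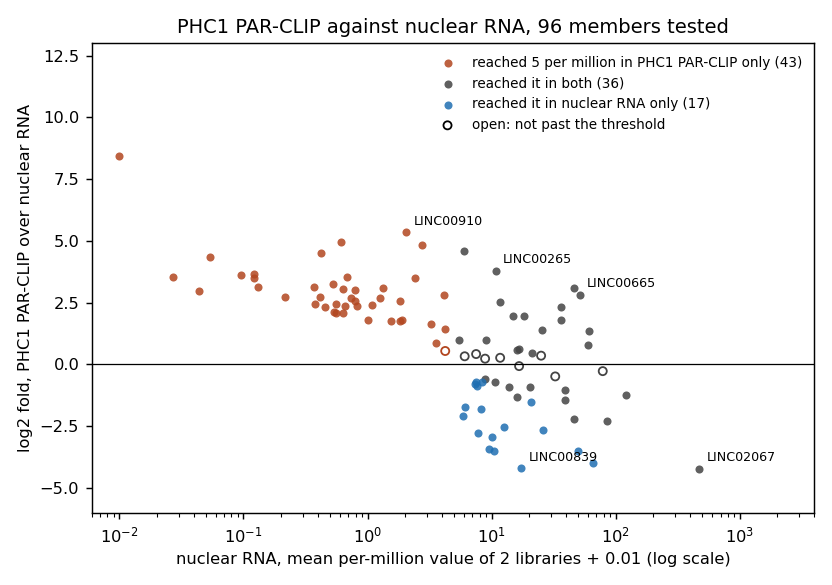
Log2 fold of PHC1 PAR-CLIP over nuclear RNA (y axis) against nuclear RNA (x axis, mean per-million value of 2 libraries plus 0.01, log scale) for the 96 members tested, coloured by the group in which they reached a per-million value of 5; open points did not pass the test. Members that entered through PHC1 alone lie above 0 and those that entered through RNA alone below 0, and the 36 that entered through both lie on either side; the leftmost point is LINC00273, with 0 reads of RNA, whose fitted fold is no bound.

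LINC00665, a gene reported as raised in several tumours, gave one of the firmest PHC1 signals. Its per-million values in PHC1 were 385 and 354, its RNA values 50.4 and 52.1, and its RNAPII values 176 (4SU) and 193 (6SG). Both PHC1 libraries lay above all 4 others, and the log2 fold over RNA was 2.83 ± 0.08 (SE, n = 2 against 2, limma adjusted p = 0.000133). The signal was spread over 67 and 77 clusters, of which the largest held 15.6% and 6.95% of the coverage.

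LINC00910 had the highest fold among members with RNA reads. PHC1 stood at per-million values of 168 and 92.6, RNA at 2.13 and 1.94, a log2 fold of 5.37 ± 0.33 (limma adjusted p = 0.000364). The gene entered the test through PHC1 alone, so the filter bears on this call. RNAPII PAR-CLIP was as high as PHC1, at 141 (4SU) and 67.7 (6SG), so the RNA was low against both proteins. Its 145 input reads at the TSS were far above the median of 22, and 7 of its 14 PHC1 clusters in each replicate lay on the gene's strand. How reads that match several places were counted is not given in the sources used here.

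LINC00640 had PHC1 values of 45.5 and 51.7 against RNA of 0.809 and 0.387, a log2 fold of 4.96 ± 0.21. All 15 and 17 of its PHC1 clusters lay on its strand. LINC01364 had 85.3 and 132 against 2.96 and 2.49 (4.85 ± 0.26), nearly all from the opposite strand as given above. In LINC00999 PHC1 was 193 and 146 against 6.02 and 5.99 (4.60 ± 0.17). LINC00265 had 181 and 147 against 10.0 and 11.5 (3.80 ± 0.15). In these 4 genes the lower PHC1 value was more than 10 times the higher RNA value, and each passed the test. LINC00640 and LINC01364 had reached the per-million value of 5 in PHC1 alone, so the filter bears on their calls. LINC00999 and LINC00265 had reached it in both groups.

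LINC02453 and LINC01951 rested on fewer clusters and also entered the test through PHC1 alone. LINC02453 had 38.8 and 25.0 of PHC1 (per-million values) from 5 clusters in each library, and 0.334 and 0.488 of RNA (4.51 ± 0.27). Its RNAPII 6SG value was 1137, all from 1 cluster, against 94.2 with 4SU. LINC01951 had 21.8 and 18.8 from 3 clusters in each library against 0.0704 and 0.0168 of RNA (4.35 ± 0.15).

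Both PHC1 libraries reached a per-million value of 5 in 4 members that had at most 0.1 CPM of RNA in each RNA library. LINC00273 (chr16:33961052-33962503, 1.45 kb) had per-million values of 496 and 236 from 7 and 8 clusters in 178 and 166 covered bases, with no RNA read in either library. As for LINC00910, the counting of reads that match several places is not given in the sources used here and bears on what these values mean. Against a floor of 3 reads per RNA library its lower PHC1 value was at least 4480-fold higher. Its largest cluster held 63.6% and 50.8% of the coverage, none of its clusters lay on the gene's strand, and RNAPII stood at 69.2 (4SU) and was listed at 0 (6SG). LINC01951 was the second of these 4. LINC00934 had per-million values of 13.8 and 8.45 and LINC00359 8.08 and 6.37, each from 1 or 2 clusters per library and with no RNAPII cluster.

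At the other end, PHC1 coverage was low or listed at 0 relative to RNA. LINC02067 had a per-million value of 471 in each RNA library and 30.8 and 19.3 in PHC1, a log2 fold of −4.21 ± 0.24 (limma adjusted p = 0.000307). Its RNAPII value was 50.4 with 4SU and it was listed at 0 with 6SG, so the most abundant member was low in all 4 PAR-CLIP libraries relative to RNA. Its 5 and 4 PHC1 clusters covered 404 and 358 bases of a region of 21.8 kb. LINC00839, LINC01106 and LINC00896 were listed at 0 in both PHC1 libraries, with RNA at 17.3 and 17.3, 9.73 and 11.2, and 9.94 and 9.21. All 3 had H3K4me3 and passed the test as lower, and no fold is given against 0. They entered the test through RNA alone, so the filter bears on these calls. RNAPII 4SU clusters were found in each of the 3, numbering 7, 4 and 3.

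LINC03124 had per-million values of 67.1 and 65.2 of RNA and 2.04 and 5.06 of PHC1 (−3.97 ± 0.38). LINC00693 had 49.5 and 49.6 of RNA and 6.57 and 1.68 of PHC1 (−3.49 ± 0.55), and its call was narrowly lost without nuclear RNA replicate 1 (limma adjusted p = 0.05002). LINC01088, whose region of 337 kb is long, had 10.1 and 9.88 of RNA and 1.06 and 0.00 of PHC1 (−2.94 ± 0.39), a call lost on numbers of clusters with limma (adjusted p = 0.0817). LINC01116, on the chromosome arm of the HOXD cluster, had 7.93 and 7.71 of RNA and 0.621 and 0.00 of PHC1 (−2.79 ± 0.27), a call lost on numbers of clusters with DESeq2 (adjusted p = 0.0562). In all of these the PHC1 values lay below the RNA values without overlap. None of them reached the per-million value of 5 in both PHC1 libraries, so the filter bears on their calls too. LINC00205, second in RNA per kb, was also lower, with 22.6 and 12.4 of PHC1 against 88.5 and 81.0 of RNA (−2.27 ± 0.31).

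**Figure D4:**
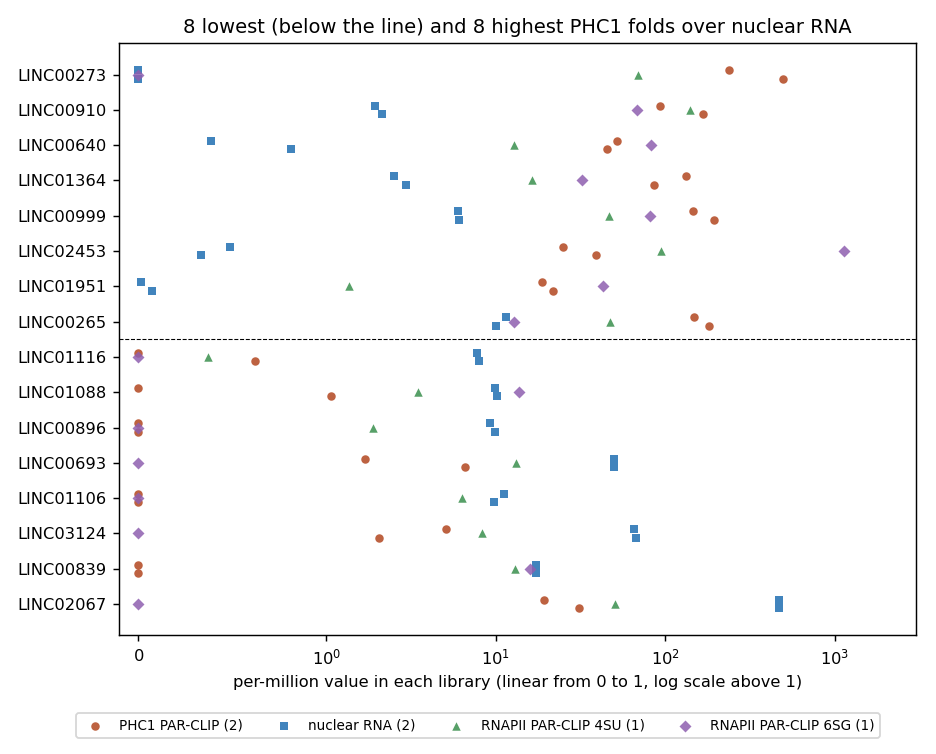
Per-million value of each library (x axis, linear from 0 to 1 and log scale above) for the 8 members with the highest fold of PHC1 PAR-CLIP over nuclear RNA (above the line) and the 8 with the lowest (below it); each point is 1 library. PHC1 points lie right of the RNA points in the upper 8 and left in the lower 8, and the 6SG point of LINC02453, at 1137, is right of all others.

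RNAPII PAR-CLIP served the study as the control for PHC1 PAR-CLIP. Of the members, 90 reached a per-million value of 5 in at least 2 of these 4 libraries. By limma over 8550 genes none was higher or lower at an adjusted p of 0.05 (background 0.0% in each direction), with a smallest adjusted p of 0.140. At an unadjusted p of 0.05, 29 members were higher (background 14.2%) and 2 lower (background 7.63%). The edgeR test on numbers of clusters called 4 members higher (background 18.5%) and 4 lower (background 16.6%) of 34. DESeq2 gave an adjusted p to 431 genes, none of them a member. Simulated 4-fold changes were recovered in 0 of 100 genes by this design, so the absence of calls says little. The 2 control libraries differ in nucleoside and in depth, and 45 of the 90 members were listed at 0 in 6SG (50.0%, 26.6% of all genes tested).

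In 46 of the 90 both PHC1 values lay above both RNAPII values (background 37.0%) and in 11 both lay below (background 23.0%). The level was reached through both PHC1 libraries but not both RNAPII libraries in 49 of the 90, and 34 of the 46 came from these, as did 22 of the 29 higher at an unadjusted p. The filter bears on these counts, which are not a result about the members. With RNAPII 4SU alone as the control, and that lone library assumed to vary like the PHC1 pair, limma called 43 members higher (background 31.6%) and 11 lower (background 27.3%), and 31 of the 43 were among those 49. The 30 members that reached the level in all 4 libraries had both PHC1 values above in 12 (40.0%, 33.6% of all such genes) and below in 8 (26.7%, against 28.9%). Against 4SU alone 11 of the 30 were higher (36.7%, against 29.2%) and 6 lower (20.0%, against 30.0%), with a median log2 fold of 0.12 against −0.06. For LINC01364 the PHC1 values were 85.3 and 132, against 16.3 (4SU) and 32.2 (6SG), LINC00265 181 and 147 against 47.4 and 12.9, and LINC00999 193 and 146 against 46.8 and 80.7. In these 3 both PHC1 libraries were above both RNAPII libraries. LINC00467, reported as a target of MYCN in neuroblastoma, went the other way, with 6.46 and 7.38 in PHC1 against 46.4 and 77.7 in RNAPII. LINC00839 was listed at 0 in PHC1 and stood at 13.0 and 15.9 in RNAPII. PHC1 against RNA and PHC1 against RNAPII share the PHC1 libraries, so their folds are not independent of each other.

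Members with published roles differed widely in this line. LINC00467 had 17.1 and 16.0 CPM of RNA, H3K4me3 at 10.6 times the input, and a log2 fold of PHC1 over RNA of −0.90 ± 0.16. That call was lost without nuclear RNA replicate 1 or 2 (limma adjusted p = 0.0837 and 0.0701) and on numbers of clusters (adjusted p = 0.0666 with limma, 0.154 with edgeR and 0.248 with DESeq2). LINC00662 had 20.3 and 19.4 CPM, H3K4me3 at 15.3 times and a fold of 0.64 ± 0.18, a call lost with library totals alone (0.14, limma adjusted p = 0.573), without nuclear RNA replicate 1 or 2 (limma adjusted p = 0.235 and 0.280) and on numbers of clusters (0.514 with limma). LINC00511 had 0.381 and 0.564 CPM and 1 PHC1 cluster in each library. LINC00261, next to the endoderm gene FOXA2 (2.36 kb), had 0.0636 and 0.121 CPM, no H3K4me3 and no cluster in any library. LINC00312 had 0.996 and 0.645 CPM, no PHC1 cluster and 2 RNAPII 4SU clusters. LINC00473 was not analysed here. The members of this list with H3K4me3 were the ones with RNA, LINC00467, LINC00662, LINC00665 and LINC01116.

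Well-known lncRNA genes without a LINC number had more RNA and more often H3K4me3, but they were listed for being well known. Of 35 listed, 11 were analysed here, all 11 detected and all 11 with H3K4me3. Their median RNA was 7.61 CPM per kb, above that of all but 2 of the members. All 11 entered the test against nuclear RNA, 8 of them by reaching the level in both groups. Of the 11, 4 were higher in PHC1 (background 38.7%) and 6 lower (background 43.7%), with a median log2 fold of −0.73. OIP5-AS1 (2.54), NEAT1 (2.47), MALAT1 (1.97) and TUG1 (1.07) were the 4 higher. The highest folds of LINC-named genes were larger than these, but from RNA levels far lower.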

How the data were processed

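PAR-CLIP, nuclear RNA-seq and ChIP-seq libraries of HEK293T T-REx cells were analysed from 15 samples, grouped by their titles. The submitters' processing notes name hg19 for all libraries, TopHat2 2.0.11 for the RNA-seq reads, Bowtie 0.12.7 for those of PAR-CLIP, Bowtie2 2.2.3 for those of ChIP-seq, and SAMtools 0.1.19. The RNA table deposited by the authors gives raw counts of reads for every gene in both libraries. The ChIP table deposited by the authors holds a score per gene: reads at the TSS scaled to library size, less the scaled input reads. The PAR-CLIP tables deposited by the authors hold a signal, the mean read coverage of each cluster. The cluster caller, the RNA read counter and its use of strand, the TSS window and the handling of duplicates are not given in the sources used here. A further 1 value column was not used.

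For EZH2, H3K27me3, H3K4me3 and RNAPII the ChIP scores were decoded into whole reads of target and input, with exactly 1 solution for 100% of the 14432 genes (tolerance 1e-06). Ratios over input are of these reads per 10M (M, 1000000). The PHC1 and PHC1 dFCS columns are the authors' values over 2 replicates each and could not be split. Symbols came from RefSeq by Entrez number (14378 genes matched), strand and promoter windows from the RefSeq promoter table (348 members matched). A cluster went to the region that holds its midpoint, and mean coverage times length gave its summed coverage.

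Per-million values, scaled by edgeR 4.0.16 with TMM, went into limma 3.58.1 (trend, robust) as log2 of the value plus 1, 2-sided, with Benjamini-Hochberg adjustment over all genes tested. The design had named edgeR for count values. Summed coverage is no count, so edgeR and DESeq2 1.42.0 were run on numbers of clusters only. In simulated data with known changes the PHC1 against nuclear RNA fit recovered 99 of 100 4-fold and 84 of 100 2-fold changes with 8297 genes, and the PHC1 against RNAPII fit 0 of 100 of each with 7778 genes. The labels do not pair same-numbered libraries. Across genes, the deviations of replicate 1 from its group mean correlated at 0.0381 between PHC1 PAR-CLIP and nuclear RNA.

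The members, gene lists and tests were chosen with earlier results of these data known. Named were the members with the 8 highest and 8 lowest folds past the threshold, the 6 with most RNA per kb, the 5 highest for H3K4me3, H3K27me3 and RNAPII, those where both PHC1 libraries reached a per-million value of 5 with at most 0.1 CPM of RNA, and 7 analysed here of 8 listed for published roles. Shares have 95% Wilson intervals and ChIP ratios exact intervals, for counting error only.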

Additional observations from a re-analysis of the deposited data

How the results depend on the processing

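Where given, shares over all genes tested under the same setting stand in parentheses, higher first. For PHC1 PAR-CLIP against nuclear RNA, no filter gave 134 higher and 99 lower of 430 (31.6% and 38.1%) and a median fold of −0.012, and a per-million value of 20 or more gave 22 and 11 of 36 (39.6% and 44.5%) and 1.07. In that stricter filter 7 of the 25 members passing in both groups were lower (41.5%). Clusters on the gene's strand only gave 38 higher of 63 (38.2%), with 10 higher and 7 lower of 19 passing in both groups (41.6% and 36.6%). Numbers of clusters gave 93 higher of 201 with edgeR (30.2%, median 1.42). With DESeq2 they gave 125 higher and 18 lower of 232 (32.8% and 34.5%, median 1.93). Of the 36 passing in both groups DESeq2 called 5 lower (41.7%). Library totals alone gave a median of 0.45 and 11 higher of 36 passing in both groups (25.8%), and a pseudocount of 5 gave a median of 0.95. Leaving out each library in turn gave 45 to 65 higher, 18 to 31 lower and a median of 1.46 to 1.75, and among members passing in both groups 9 to 22 higher and 7 to 14 lower. Each of these fits leaves 1 library in a group. The shares of all genes called fell without an RNA library and rose without a PHC1 library, as the members' counts did. The ranges of these counts therefore show no difference of the members from other genes. The median fold of all genes in these fits was −0.32 to −0.13. The replicate number as a block gave 58 higher and 26 lower (38.1% and 43.6%), the numbers not being known to pair the libraries. Chosen after seeing the data, a mean per-million value of 5 or more over both groups gave a median of 1.01, and leaving out each gene's largest cluster gave 0.65.

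For PHC1 against RNAPII PAR-CLIP, edgeR on numbers of clusters gave 4 higher and 4 lower and a median of 0.080, DESeq2 gave no member an adjusted p, and 4SU alone 43 higher and 11 lower. At 1.5 and 3 times the input, H3K27me3 passed at 57 and 0 members, EZH2 at 79 and 0 and RNAPII at 121 and 24. RNA was detected in 247 members at 0.1 CPM and in 56 at 5 CPM. For these mark and RNA levels no share over all genes is given. The counts therefore show how the threshold moves them and no difference from other genes. On the gene's strand there were 701, 731, 685 and 39 clusters (PHC1 replicates 1 and 2, RNAPII 4SU and 6SG).

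Among 32 named genes and 505 alternatives of the comparison with RNA, 459 kept direction and side of the threshold, 38 lost and 6 gained the call and 2 changed sign: LINC00673 to −0.050 with library totals and LINC00987 to 0.14 without PHC1 replicate 2 (−0.27 without replicate 1). Against RNAPII, where none passed, LINC00910 changed sign to −0.076 without PHC1 replicate 1 (0.77 without replicate 2), −0.56 and −0.12 on numbers of clusters (limma, edgeR) and −0.17 with 4SU alone. LINC00640 went to −0.15 and LINC01951 to −0.64 on numbers of clusters with limma, and LINC02453 to 2.90 without its largest clusters. The cause was not tested.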

Other observations

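The position of PAR-CLIP clusters along members with a known strand differed from that in other genes. The median cluster on the gene's strand lay 53.2% and 51.7% of the way from the start of the region in the PHC1 libraries and 45% in RNAPII 4SU, against 46.5%, 45.7% and 55.7% over all genes. The members' PHC1 clusters thus lay later than their RNAPII 4SU clusters, while in all genes they lay earlier. Clusters of a gene share their RNA, and this difference was not tested.

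Across the 500 members the replicates followed each other less closely than across all genes, with Spearman's rho of 0.863 against 0.973 for PHC1 PAR-CLIP and 0.936 against 0.997 for nuclear RNA. These are correlations over genes within the same libraries, with many members at or near 0, and genes are not independent replicates.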
